A study of Mus musculus with 12 samples.

Results

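The outer bulge niche genes described here are 10 genes, Postn, Cd34, Myoc, Ltbp2, Fbln1, Hmcn1, Sema3e, Il31ra, Ccn2 and Tgm5, of the 22416 genes counted in this series of single-cell ribosome profiling of mouse back-skin epidermis. They were chosen by name, and the choice was made with the counts per well of these plates in view, so their levels, their concentration in few wells and their detection together are descriptions and carry no test. Ribosome profiling sequences the short stretches of mRNA that ribosomes shield from a nuclease, called footprints, so a count here is a footprint and reports on mRNA under translation. Cycloheximide, which halts ribosomes on their mRNA, was given by tail-vein injection before the skin was taken, and live single cells were sorted into wells. The mice were female C57BL/6 animals, 3 young (56 to 60 days) and 3 old (22 to 26 months), and are named here by postnatal day. The young animals were P60 (3 plates), P57 (1 plate) and P59 (1 plate). The old animals were P758 (2 plates), P662 (2 plates) and P722 (1 plate). The labels name no genetic change, and all animals received cycloheximide. Plates that share an age group and a postnatal day were counted as 1 animal. Of 12 plates, 10 were filled without a surface-marker gate. Another held cells sorted as negative for Sca-1, young and old mixed, and another, labelled P758, was a test of nucleases.

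The bulge is the part of the hair follicle below the sebaceous gland where slow-cycling follicle stem cells reside, and its outer layer rests on a basement membrane. Cells of the outer bulge secrete matrix proteins and signals that shape the niche for themselves, for nerve endings and for the arrector pili muscle. Mouse bulge cells are commonly isolated by surface CD34, and the factors Sox9, Lhx2, Nfatc1 and Tcf7l1 are known for maintaining them.

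The 1924 wells of the 10 ungated plates ranged widely in depth, and 1906 held at least 100 counts. The median well held 1352 counts in P60, 865 in P758 and 168 to 347 in the other 4 animals. Nearly all of the depth lay in P60, with 2384294 counts, and P758, with 896688, while P57 held 5230 counts in 13 wells. One count was therefore worth 0.419 counts per 1000000 counts (CPM) in P60 and 191 CPM in P57. The plates together used 384 different cell barcodes, and 2 plates shared between 1 and 293 of them. Wells with at least 3 of the 10 genes numbered 96 over all 12 plates and fell on 83 barcodes, 12 of which had such a well on more than 1 plate. In sum the 10 genes took 2917 counts, 0.0863% of all counts on the ungated plates.

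Cd34, Myoc and Hmcn1 lie far apart on chromosome 1, and each other member lies on a chromosome of its own. Of 9 members with a promoter window in the RefSeq table of build GRCm38.p6, 6 windows ended before the annotated gene began, and 4 of those held a match to 1 of 7 short motifs searched on both strands in the 250 bases before the start. They are printed because the members were detected together and these are the stretches a reader would set side by side. Capitals mark the matches. TGTTTNC is the core of forkhead (FOX) sites, GGAAAA of NFAT sites and CTTTGNT of TCF sites. The windows are Cd34 at chr1:194938571-194938820 (+ strand), Sema3e at chr5:14025026-14025275 (+ strand), Myoc at chr1:162638900-162639149 (+ strand) and Fbln1 at chr15:85205699-85205948 (+ strand).
Cd34: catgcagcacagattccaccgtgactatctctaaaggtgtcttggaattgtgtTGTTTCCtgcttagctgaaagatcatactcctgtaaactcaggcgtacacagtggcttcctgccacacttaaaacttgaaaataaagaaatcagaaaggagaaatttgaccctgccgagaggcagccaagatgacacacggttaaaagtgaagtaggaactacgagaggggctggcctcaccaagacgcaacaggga
Sema3e: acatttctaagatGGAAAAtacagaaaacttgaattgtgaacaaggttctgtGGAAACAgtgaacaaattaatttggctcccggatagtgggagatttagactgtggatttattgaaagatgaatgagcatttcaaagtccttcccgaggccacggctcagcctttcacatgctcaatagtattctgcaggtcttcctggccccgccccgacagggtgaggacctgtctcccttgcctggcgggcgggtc
Myoc: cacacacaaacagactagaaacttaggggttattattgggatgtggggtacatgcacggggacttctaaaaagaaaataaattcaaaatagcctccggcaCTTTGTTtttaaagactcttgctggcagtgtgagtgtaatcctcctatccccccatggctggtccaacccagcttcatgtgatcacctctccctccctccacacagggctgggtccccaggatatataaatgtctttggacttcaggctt
Fbln1: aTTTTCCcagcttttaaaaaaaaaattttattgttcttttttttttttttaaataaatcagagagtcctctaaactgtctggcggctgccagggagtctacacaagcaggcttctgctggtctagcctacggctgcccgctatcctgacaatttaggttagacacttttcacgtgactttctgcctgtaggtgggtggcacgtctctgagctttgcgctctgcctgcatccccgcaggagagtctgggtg
The 9 members had 11 windows, as Postn and Fbln1 had 2 each. The FOX letters occurred in 4 of the 11, those of Postn (its second start), Cd34, Hmcn1 and Sema3e, against 17.8% of 32851 windows of all genes. NFAT letters occurred in 3 of the 11, those of Ltbp2, Fbln1 (its first start) and Sema3e, against 20.4% of windows. TCF letters occurred in 1, that of Myoc, against 15.98%. Hmcn1 also held the TEAD letters GGAATG, found in 12.6% of windows, and the SOX letters ACAATG, found in 10.7%, the latter overlapping its FOX match. The letters TGANTCA (AP-1) and TAATTA (LHX) were in no member window, and in 6.75% and 4.84% of all windows. A match is a description of the sequence and not a binding site.

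The matrix genes come first. Postn codes for periostin, a secreted protein that binds integrins and collagen (chr3:54359267-54391041). It had 812 counts or 341 CPM in P60, 516 counts or 575 CPM in P758, 26 counts or 369 CPM in P662, 14 counts or 1086 CPM in P722, 1 count or 80.8 CPM in P59 and no count in P57. By point value all 3 old animals were above all 3 young animals. The interval for P662, 241 to 540 CPM, held the level of P60. That for P57 reached 705 CPM and that for P722 ran from 594 to 1822 CPM (exact 95%, counting error only). By plate the ages overlapped, with plate 11 of P662 at 347 CPM, below plates 1 and 3 of P60 at 353 and 368 CPM. The nuclease plate, labelled P758, was at 297 CPM. By detection, as by CPM, P758 was above P60, with Postn in 15.0% of 627 wells of P758 and 11.9% of 981 wells of P60.

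Hmcn1 codes for hemicentin 1, a very long protein of the fibulin family found at basement membranes (chr1:150562500-150993652). Its level was 142 CPM in P60, 110 in P758, 70.9 in P662 and 310 in P722, the last from 4 counts, and no count fell in P57 or P59. Ltbp2 codes for a protein of the latent TGF-β binding family that joins fibrillin microfibrils (chr12:84783212-84876558). It stood at 31.5 CPM in P60, 45.7 in P758, 113 in P662 and 77.6 in P722, the last from 1 count. Fbln1, the basement membrane and elastic fibre protein fibulin 1 (chr15:85205949-85286294), had 31.0 CPM in P60, 36.8 in P758, 42.5 in P662 and none in P722. Ccn2, a matricellular protein also known as connective tissue growth factor and a classic target of YAP and TEAD (chr10:24595442-24598683), had 65.4 CPM in P60, 69.1 in P758, 14.2 in P662, 77.6 in P722 and 80.8 in P59. For the last 3 of these the level came from a single count each, so young and old ranges overlapped.

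Of the surface proteins, Cd34 codes for a sialomucin used to sort bulge cells (chr1:194938821-194961292). It was counted in P60, at 33.6 CPM from 80 counts, and in P758, at 16.7 CPM from 15 counts, and in no other animal. Il31ra codes for the chain that joins Osmr to form the receptor for interleukin 31, a cytokine of itch (chr13:112521931-112580732). It was at 24.3 CPM in P60, 27.9 in P758, 56.7 in P662 and 155 in P722, the last 2 from 4 and 2 counts. Both genes lacked a count in P57 and P59, where 3 counts would stand for 574 and 243 CPM.

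Among secreted factors, Sema3e codes for the ligand of plexin D1 in axon and vessel guidance (chr5:14025276-14256689). It reached 54.1 CPM in P60, 23.4 in P758, 56.7 in P662 and 80.8 in P59, the last 2 from 4 and 1 counts. Myoc codes for myocilin, a secreted olfactomedin-domain protein (chr1:162639150-162649694). Myoc had 114 counts or 47.8 CPM in P60, none in the 896688 counts of P758, 1 count in P662 and 2 counts in P722. Tgm5 codes for transglutaminase 5, an enzyme that cross-links proteins and is best known in the upper epidermis (chr2:121046111-121085841). Its values were 53.3 CPM in P60, 65.8 in P758, 28.3 in P662 and 77.6 in P722, the last 2 from 2 and 1 counts. Between P60 and P758 the counting intervals did not overlap for Postn, higher in P758, or for Sema3e and Myoc, higher in P60. They overlapped for the other members, narrowly for Cd34 (26.6 to 41.8 CPM in P60 and 9.36 to 27.6 in P758). These intervals leave out the spread between wells and plates. Sema3e was at 52.1 CPM on plate 2 of P758 and 3.76 on plate 4, against 46.8 to 55.9 on the plates of P60. Myoc was at 53.0, 1.07 and 138 CPM on plates 1, 3 and 9 of P60. For both genes, plates of 1 animal therefore differed widely.

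**Figure D1:**
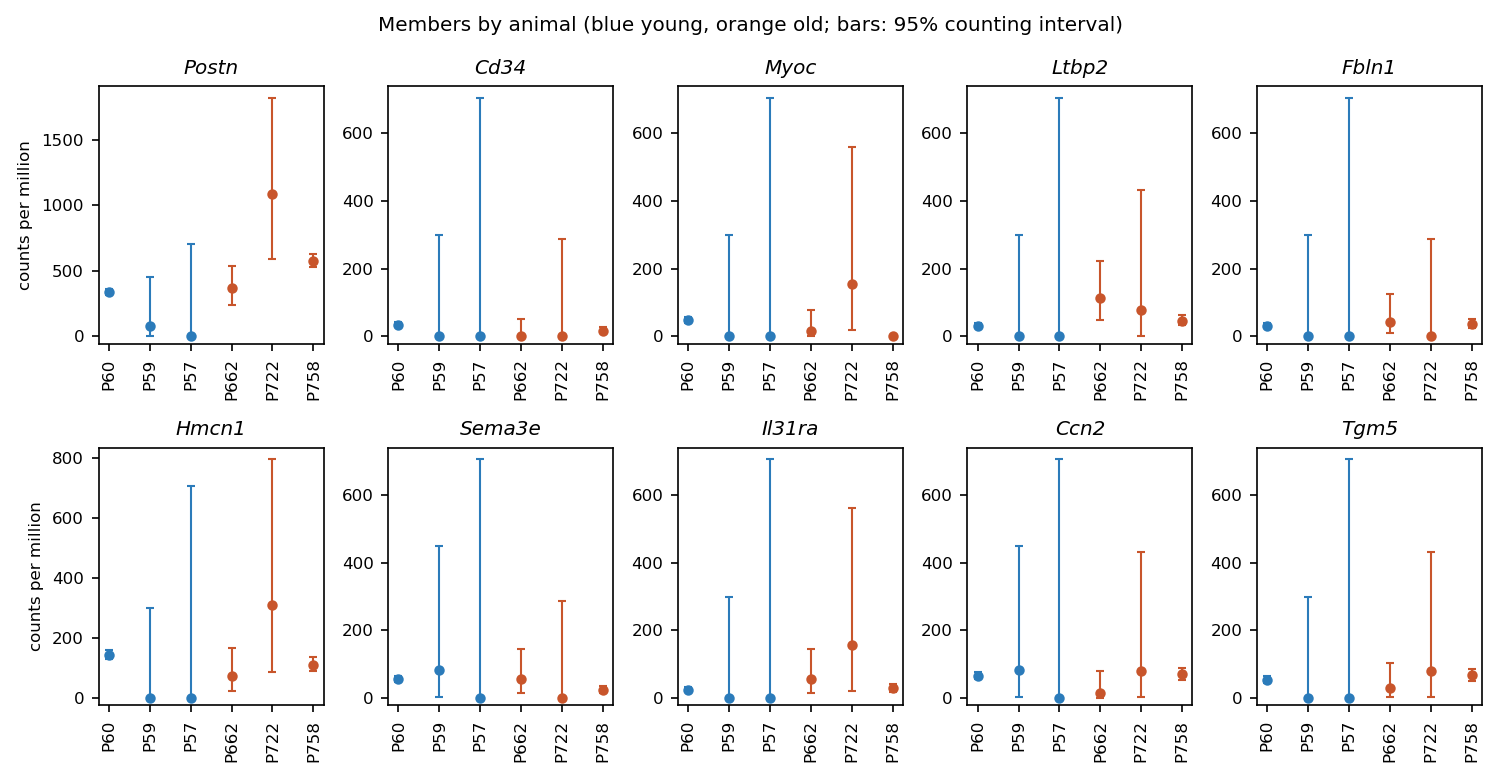
Level of each gene in CPM (y axis, its own scale per panel) for each animal, young in blue and old in orange, with exact 95% counting intervals. The intervals of P60 and P758 are short and those of P57, P59 and P722 are long, so that the 3 shallow animals constrain the levels little.

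How the genes differed between ages was tested over animals with edgeR's quasi-likelihood test on summed counts, fitted across all genes that passed its filter on low counts. Of the genes tested, 0% were called at an adjusted p under 0.05 and 25 had an unadjusted p under 0.05. Postn was the only member that passed the filter. Its mean level was 677 ± 370 CPM over the old animals, against 140 ± 178 CPM over the young (SD, 3 animals each). By point value it was higher in all 3 old animals, with P662 above P60 by less than the counting error. Its log2 difference of old over young was 1.11 (SE 0.521), with an unadjusted p of 0.0581 and an adjusted p of 0.998 by edgeR. Postn did not pass the threshold, which does not show that the ages are alike. DESeq2 on the same genes called none either, with 6 genes at an unadjusted p under 0.05, and gave Postn 1.56 (SE 0.819).

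The other 9 members were too low to be tested. With no filter, 0.699% of 15873 genes were called, and Myoc was the only member among them, with a log2 difference of -3.65 (SE 0.802) and an adjusted p of 0.00175 by edgeR. Its plain mean went the opposite way, at 56.5 ± 85.8 CPM over the old animals against 15.9 ± 27.6 CPM over the young (SD, 3 animals each), because P722 and P662 held 2 and 1 counts at shallow depth. All but 18 of its 117 counts came from 3 wells of P60, and without P60 the young animals have no Myoc count. In the same fit Ltbp2 was at 0.96 (SE 0.639), Il31ra at 0.56 (SE 0.601), Fbln1 at 0.25 (SE 0.577), Tgm5 at 0.22 (SE 0.615), Hmcn1 at 0.00 (SE 0.457), Ccn2 at -0.14 (SE 0.626), Sema3e at -0.97 (SE 0.633) and Cd34 at -1.15 (SE 0.545), with adjusted p-values between 0.615 and 1.00. On simulated counts with the same animals and genes, the test recovered 6% of 200 genes changed 2-fold and 73.5% of those changed 4-fold.

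Counts of every member were crowded into few wells. For each gene, the number of wells with a count was set against the number expected if its counts on a plate fell on wells in proportion to their depth. That ratio had a median of 0.452 over the 10 members, and 0.962 over the 5957 genes with at least 100 counts. Myoc was the most crowded, at 0.143. Its 117 counts lay in 14 wells where 97.7 were expected, 1 well of P60 held 47 of them (40.2%), and 10 wells held 96.6%. Leaving out the 3 wells with most Myoc, all other wells together had 18 counts and the ratio rose to 0.623.

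Postn followed at 0.319, with 1369 counts in 226 wells where 709 were expected. Its highest well, on plate 1 of the young animals, had 90 Postn counts of 3289, or 2.74% of the counts of that well. Only 29 wells held 50% of its counts. Ccn2 stood at 0.368, with 8 wells holding 50% of 221 counts and 25 counts in 1 well of P758. Cd34 at 0.399 had 95 counts in 35 wells, 8 of which held 50%. Hmcn1, at 0.400, spread 447 counts over 132 wells. The least crowded were Ltbp2 at 0.505, Sema3e at 0.515, Fbln1 at 0.581, Il31ra at 0.587 and Tgm5 at 0.606, and 52.2% to 65.5% of their wells had a single count. All 10 lay below the median of other genes, and between 0.101% and 3.98% of the genes with at least 100 counts had a lower ratio than a given member. Cd34, with 95 counts, and Il31ra, with 89, had fewer than 100 themselves. By share of counts in the 10 top wells the order differed, with Postn at 27.4%, Ccn2 at 57.5% and Cd34 at 60.0%.

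**Figure D2:**
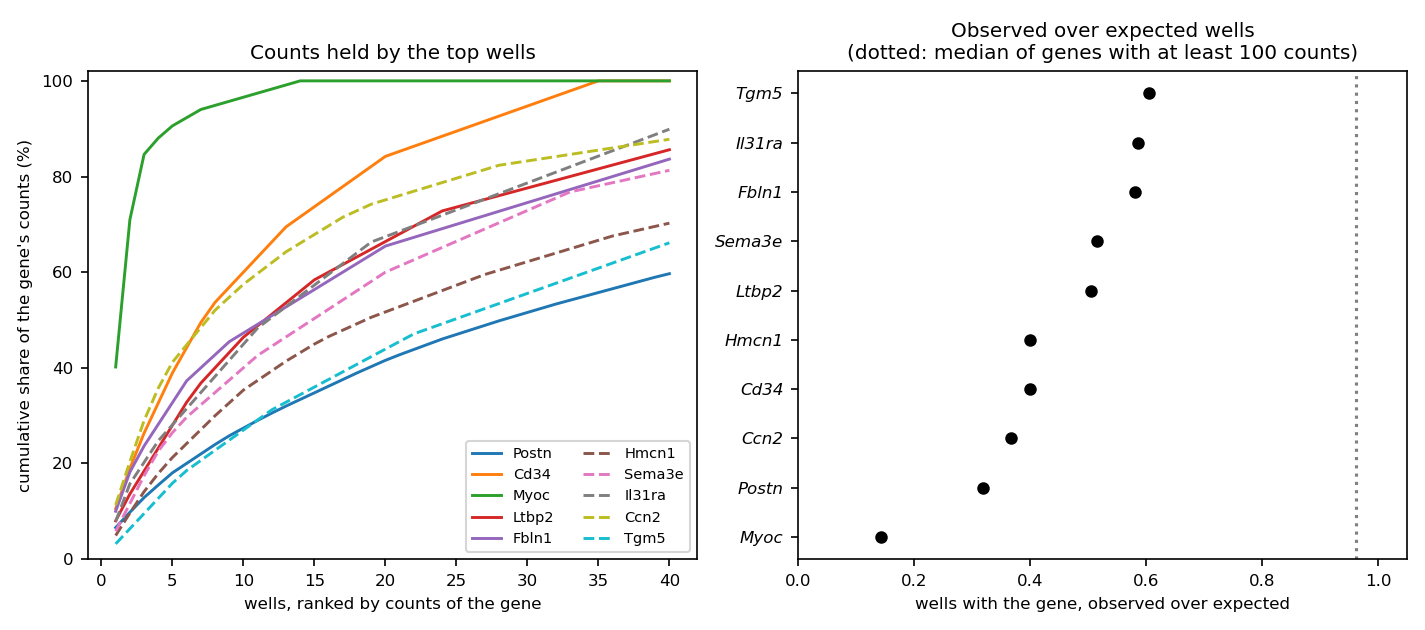
Left, cumulative share of each gene's counts (y axis, percent) against wells ranked by its counts (x axis). Right, wells with the gene over wells expected from depth, per gene, with the median of genes with at least 100 counts as a dotted line at 0.962. Myoc reaches 96.6% within 10 wells while Postn reaches 27.4%, and every member lies left of the line.

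The same wells held several members. Of the 1906 wells, 1511 had none of the 10, 243 had 1, 65 had 2 and 87 had at least 3 (4.56%). Wells with at least 3 are called member-rich. Those 87 wells held 66.5% of the members' counts. Their median depth was 873 counts against 895 in the other wells, so they were not the deepest ones. Among 1329 wells with at least 500 counts, 69 (5.19%) had at least 3 members, 49 of them from P60 and 20 from P758. At the boundary 48 wells had 2 members and 10 had 3, while 59 had 4 or more.

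Single wells show the pattern. A well on plate 1 of the young animals, with 6606 counts, held all 10 members: 36 counts of Postn, 7 of Hmcn1, 6 of Cd34, 4 of Tgm5, 3 each of Ltbp2, Il31ra and Ccn2, 2 of Fbln1, and 1 each of Myoc and Sema3e. Another on that plate, with 3289 counts, held 9 members and 182 counts of them, 5.53% of the well, with 90 of Postn and 47 of Myoc. The richest well of the old animals came from P758 (2741 counts, 7 members) and had 35 counts of Postn, 25 of Ccn2 and 11 of Fbln1. The other two old animals had such wells at shallow depth. A well of P662 with 444 counts had 6 members, and 1 of P722 with 202 counts had 5.

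**Figure D3:**
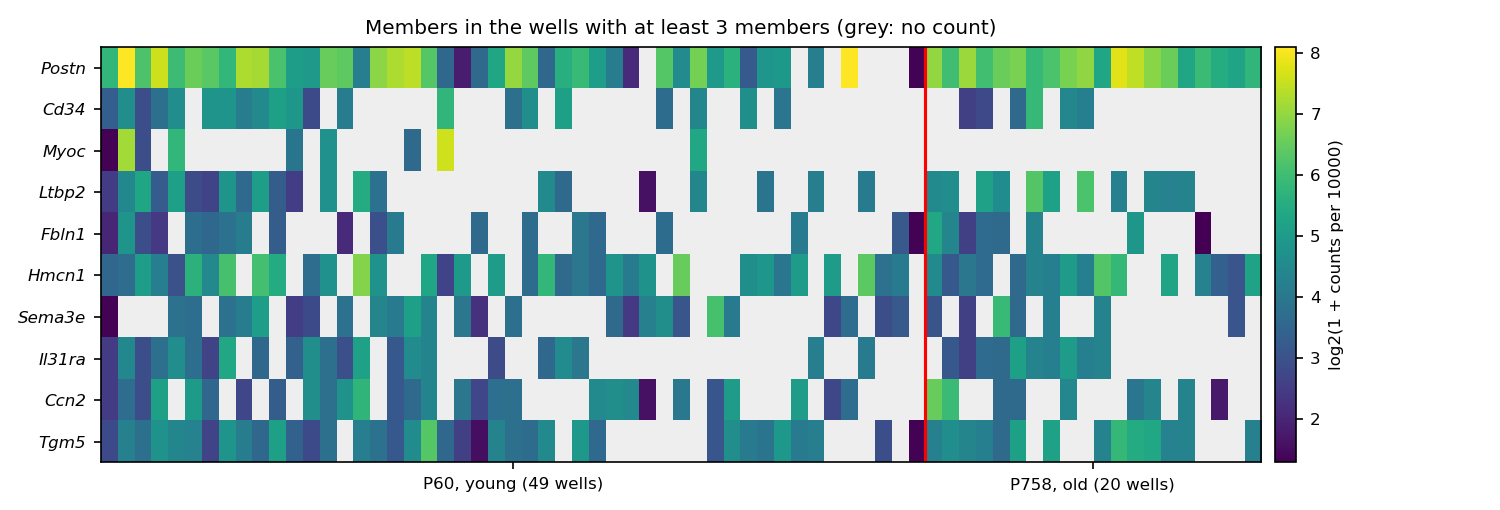
The 69 wells with at least 3 members and at least 500 counts (columns, P60 left of the line and P758 right of it) against the 10 genes (rows), coloured by log2 of 1 plus counts per 10000, with grey for no count. Postn is present in 63 of 69 wells, and Myoc in 9, all of P60.

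To set wells of unequal depth side by side, each well was thinned at random to 500 counts. At that depth 55 of 1329 wells (4.14%) had at least 3 members, 38 of 807 in P60 (4.71%, exact 95% interval 3.35 to 6.41) and 17 of 472 in P758 (3.60%, 2.11 to 5.70). The intervals overlap, and the 36, 7, 4 and 3 wells that P662, P722, P57 and P59 had at that depth held none, which allows a share of up to 9.74% in P662. By plate the shares ran from 3.20% (plate 9) to 6.01% (plate 3) in P60 and were 4.74% and 2.68% on plates 2 and 4 of P758. Plates of one animal therefore differed by as much as the animals did.

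Pairs of members were then counted against the number expected if the genes fell on a plate's wells independently. In wells thinned to 500 counts the median over the 45 pairs was 10.2 times the expectation, and 43 pairs were above it. Myoc with Sema3e and Myoc with Ccn2 were never seen together, but only 0.108 and 0.205 wells were expected, so these zeros say little. All wells with Myoc at that depth came from P60, so without P60 the pairs with Myoc dropped out. Over the remaining pairs, in 522 wells, the median was 17.4, so its size depends on the animals and pairs included. With all counts the median was 7.17, from 3.80 (Postn with Sema3e) to 29.7 (Cd34 with Myoc), and all 45 pairs were above expectation. The pairs above 15 were Cd34 with Myoc, 7 wells where 0.235 was expected, Il31ra with Myoc (23.8), Cd34 with Il31ra (21.7), Ltbp2 with Myoc (18.0) and Ltbp2 with Il31ra (17.1). The largest number of shared wells was 66, for Postn with Hmcn1. A pair's ratio has a ceiling set by how widely its commoner gene is detected, so pairs with Postn cannot reach the values of pairs of rare genes.

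**Figure D4:**
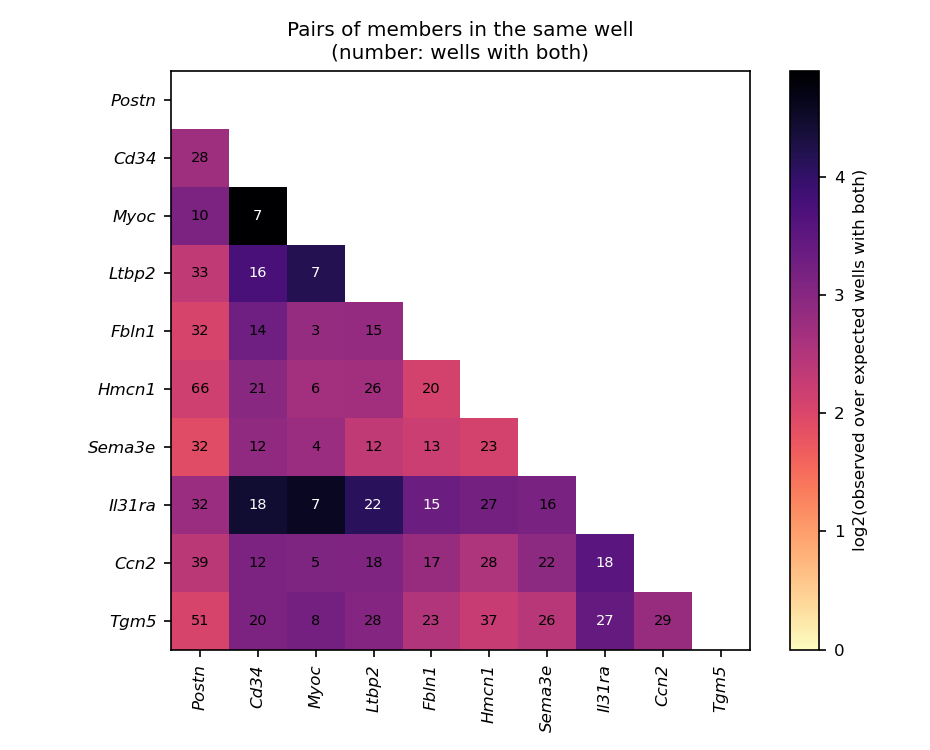
Each square is a pair of members over the 1329 wells with at least 500 counts, coloured by log2 of observed over expected wells with both, with the number of such wells printed. Every pair is above 0, the darkest squares are pairs among Myoc, Cd34, Il31ra and Ltbp2, and the lightest is Postn with Sema3e at a ratio of 3.80.

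Members differed in how often they were found without another member. Il31ra was found in 33 wells with at least 500 counts, and each of them had at least 2 other members. Cd34 was alone in 1 of 29 wells, and Myoc in 1 of 11. Ccn2 was alone in 9 of 56 wells, Ltbp2 in 9 of 47, Hmcn1 in 31 of 107, Sema3e in 21 of 60, Fbln1 in 19 of 53 and Tgm5 in 32 of 88. Postn was alone in 75 of 177 wells, 28 of 100 in P60 and 46 of 76 in P758. Over the pooled wells Il31ra was the member least often alone and Postn the one most often alone (42.4%). Within P60, however, Postn at 28.0% was below Tgm5 at 40.3%, Fbln1 at 39.5% and Sema3e at 36.2%.

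Wells with Postn and no other member had higher basal marker levels and less Sox9 than those it shared. Their summed level of 8 basal epidermal markers averaged 638 counts per 10000, against 416 in wells where Postn came with at least 2 other members. Sox9 averaged 0.885 against 7.08 and Mki67, a gene of dividing cells, 9.01 against 1.68. The mean Postn count was 3.37 against 11.8. Thinned to 500 counts, Postn was found in 7.73% of the 440 wells of P758 without another member (exact 95% interval 5.41 to 10.6) and in 3.07% of 717 in P60 (1.93 to 4.61). The plates gave 8.76% and 6.91% in P758 and 1.24%, 5.16% and 2.68% in P60, so the lowest plate of P758 was above the highest of P60. At that depth the other animals had between 3 and 36 wells each, so this contrast rests on 1 animal per age, and age and animal cannot be told apart in it.

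In the 32 wells with Tgm5 and no other member, the 8 spinous markers, genes of the differentiating layer such as Krt1 and Krt10, summed to 319 counts per 10000 on average, and 8 upper follicle markers to 93.5, against 20.8 and 32.2 where Tgm5 came with at least 2 other members. Krt79, a keratin of the upper follicle, averaged 49.9 against 5.41. In P758 only 4 wells had Tgm5 alone, with spinous markers at 842 against 14.2 in company. There the upper follicle markers went the other way, at 3.60 against 15.4, and Krt79 was at 0 against 1.36. Fbln1 alone was found in deep wells, with a median of 7556 counts against 1636 where it had company. Depth was not matched in these contrasts, and its part in them was not tested.

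Genes outside the list were ranked by the Pearson correlation of their level with the members' mean over the 1329 wells, each plate centred on its own mean (log2 of 1 plus counts per 10000). Of 9725 genes seen in at least 20 wells, the highest were Pdzrn4 (r = 0.557), Nt5e (0.543), Lhx2 (0.538), Thsd1 (0.536), Ptn (0.529), Megf6 (0.463), Dkk3 (0.458), Tbx1 (0.447), Farp1 (0.446), Krt24 (0.445), Fgfr1 (0.441), Col5a2 (0.438), Timp2 (0.435), Fzd2 (0.435) and Lgr5 (0.431). The points share plates and depth, so no p is given. Lhx2, a homeodomain factor of follicle stem cells, was in 25 of the 69 member-rich wells and 0.0986% of the 1014 wells with no member. Ptn, the secreted growth factor pleiotrophin, averaged 13.2 ± 11.9 counts per 10000 in the former and 0.427 ± 2.31 in the latter (SD over wells). Lgr5, a receptor for R-spondins on follicle stem cells, averaged 4.66 ± 10.1 against 0.0470 ± 0.809. Since the 15 were selected on these wells, their higher means in member-rich wells restate that selection.

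**Figure D5:**
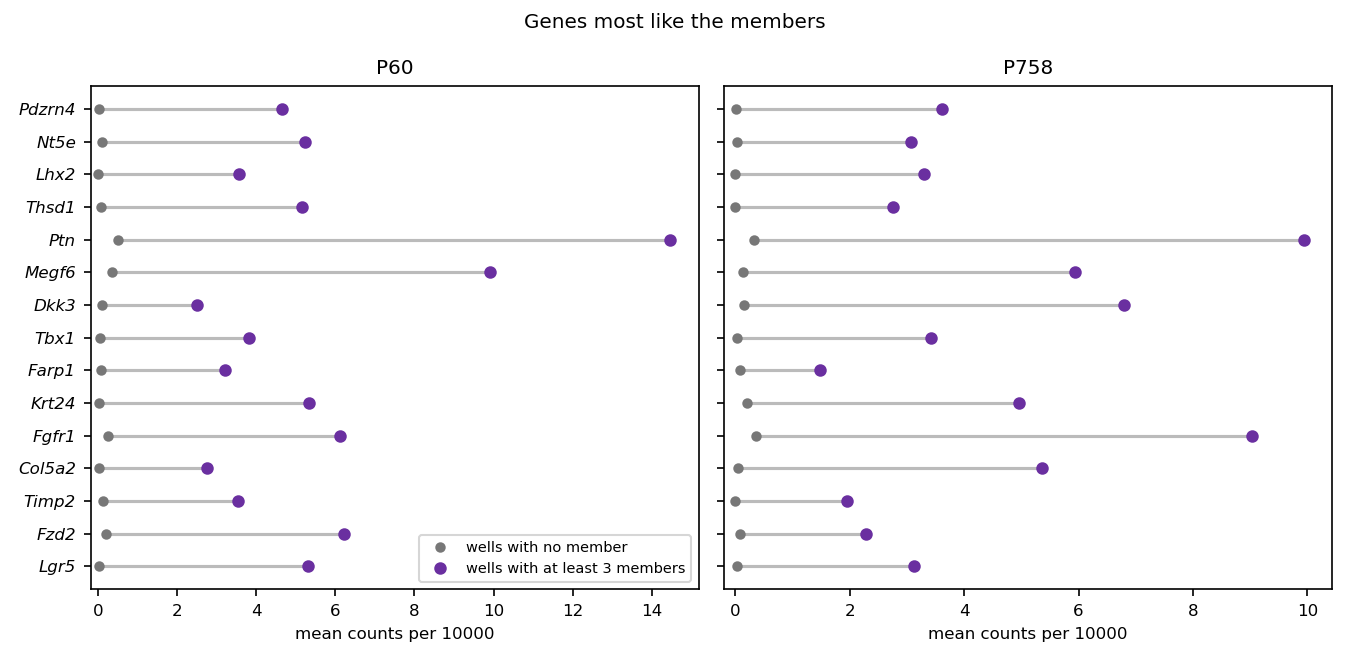
Mean level in counts per 10000 (x axis) of the 15 genes most like the members, in P60 and in P758, for wells with no member (grey, 603 and 367 wells) and wells with at least 3 (purple, 49 and 20 wells). The genes were selected on these wells, which sets the purple points to the right of the grey ones. Ptn has the highest mean, 14.5 in P60 and 9.93 in P758.

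Taking each member by itself, the gene most like it was mostly another member. Ltbp2 and Il31ra were each other's nearest gene of all those compared (r = 0.606), Tgm5 and Cd34 were nearest to Il31ra (0.566 and 0.553), and Postn and Fbln1 to Tgm5 (0.558 and 0.422). Hmcn1 was nearest to Il31ra (0.498). Myoc was nearest to Cd34 (0.436), with Igdcc4 second at 0.360. Sema3e and Ccn2 had a gene outside the list first, Serpinb11 at 0.414 and Megf6 at 0.498. Cd34 had Tbx1 second at 0.529.

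Gene lists of the follicle niche were compared between member-rich wells and wells with no member, as counts of genes with the higher mean. Over all 9936 genes with at least 20 counts, 41.9% were higher in member-rich wells, with a median log2 ratio of -0.18. Of the follicle stem cell transcription factors, 17 of 17 such genes were higher in the pooled wells (median 2.29). They included Nfatc1 at 10.8 ± 14.4 against 0.887 ± 3.95 counts per 10000 (SD over wells) and Sox9 at 6.89 ± 7.09 against 0.439 ± 2.59. Nfib was at 9.17 ± 9.65 against 2.99 ± 5.54, and Tbx1 at 3.70 against 0.0286. Within P758, Barx2 (0.0722 against 0.247) and Id3 (0 against 0.204) were lower. Tcf7l1 had too few counts to enter, and was in 2 of the 69 member-rich wells, at 0.253 against 0.0397. Of the surface and signalling genes, 14 of 19 were higher (median 0.92), among them Fgfr1 at 6.96 against 0.290, Fzd7 at 4.70 against 0.46 and Fzd2 at 5.08 against 0.139, while Lrig1, a stem cell gene of the upper follicle, was at 4.74 against 3.29. Of the keratins and adhesion genes 13 of 16 were higher, Krt15 at 174 ± 149 against 111 ± 114 and Krt17 at 20.004 against 5.70, and Krt14 was lower, at 25.8 ± 32.8 against 71.9 ± 85.6. Of the bulge ligands and secreted inhibitors 8 of 17 were higher, close to the share over all genes. Those at a higher mean included the chemokine Cxcl14 at 14.6 ± 17.3 against 3.26 ± 6.63, follistatin (Fst) at 6.04 against 0.231, and the Wnt inhibitors Sfrp1, at 4.89 against 0.306, and Dkk3, at 3.74 against 0.114. Tbx1, Fgfr1, Fzd2 and Dkk3 were among the genes selected above on these wells, so their higher means restate that selection. The counts of higher genes in these lists also include Lhx2, Lgr5 and Krt24, which were selected in the same way.

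Of 19 other matrix genes with at least 20 counts, 16 were higher in member-rich wells, with a median log2 ratio of 1.61. The basement membrane proteoglycan Hspg2 was at 8.09 ± 11.5 against 0.867 ± 3.08 counts per 10000, the laminin chain Lama5 at 13.3 ± 17.6 against 6.09 ± 9.96, and Col18a1 at 7.10 against 1.62. Lama3, a laminin chain of the whole basal layer, was about equal in the pooled wells, at 11.8 against 11.4. The 2 deep animals went opposite ways, with Lama3 at 10.03 against 12.97 in P60 and 16.1 against 9.74 in P758. Among the members' own relatives 5 of 14 were higher (35.7%), near the 41.9% of all genes. Ltbp1 was found in 27.7% of 47 wells with Ltbp2 and 3.51% of 1282 wells without it, and Ltbp3 was at 7.64 against 1.06 in member-rich wells and those with no member. Tgfbi, the closest relative of Postn, was broadly present, in 81.9% of wells with Postn and 62.8% of those without.

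Genes that work with the members were also looked up in the members' wells. Osmr, the partner chain of Il31ra, was found in 8 of 33 wells with Il31ra (24.2%) and 25.3% of 1296 wells without it. Plxnd1, the receptor of Sema3e, was in 2 of 60 wells with Sema3e and 6.15% of the others. Ccn1, a relative of Ccn2, was in 23.2% and 23.0%. Of 22 partner genes 6 were higher in member-rich wells (27.3%, against 41.9% of all genes). The ligands Il31 and Osm had no count in any of the 1329 wells.

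The name outer bulge was set beside markers of outer bulge and of the other cells a skin suspension could hold. Outside the 10 members, all 6 outer bulge markers with enough counts were higher in member-rich wells. Of these, Lhx2 and Lgr5 were also among the 15 genes selected on these wells. The list was chosen with earlier results known, so it gives no independent check of the name. The summed level of 8 such markers averaged 207 counts per 10000 against 113. Most of that sum was Krt15, at 174 against 111, which was in 87.2% of wells with no member. The summed markers of neighbouring follicle cells were higher too, but single markers were mixed. The 8 upper follicle markers summed to 35.8 against 22.1 (4 of 7 higher), and Krt17 was the largest part of that sum. Krt79 (6.74 against 9.17), Cst6 (0.867 against 1.80) and Sox21 (0.0485 against 0.559) were lower in member-rich wells. The 6 markers of inner bulge and companion layer summed to 3.82 against 1.04 (2 of 3 higher). Krt6a was in 13.04% against 0.888% of wells, while Krt16 was lower, at 0 against 0.481. Ly6a, the gene for Sca-1, was at 0.141 ± 0.780 against 1.96 ± 4.94. Spinous markers summed to 19.97 against 226, with 1 of 8 higher, Sbsn at 8.57 against 5.85. Basal markers summed to 405 against 400, but single markers were mixed. Of these, 5 of 8 were higher, such as Dst at 81.1 against 52.4. Krt14, Ly6a and Itga6, the last at 5.41 against 11.5, were lower. All 9 endothelial markers were at 0 in member-rich wells, but 0 of them had 20 counts. They summed to only 0.231 in wells with no member, so this 0 says little. Of the 9 T cell markers 0 were higher, with Cd3e, Cd3g and Ptprc at 0. Of the Langerhans markers 2 of 7 were higher, Epcam at 2.80 against 1.20 and Mfge8 at 0.503 against 0.198, while Cd207 was at 0. Of the melanocyte markers 1 of 5 was higher, Mitf at 1.61 against 0.133. The 12 fibroblast markers summed to 8.70 on average (0 to 39.5) against 2.46 (0 to 189), and 4 of the 5 with at least 20 counts were higher (median log2 ratio 2.10). These were Col6a1 at 5.36 against 0.207, Col6a2 at 2.02 against 0.0661, Col1a2 at 0.584 against 0.0597 and Col1a1 at 0.422 against 0.206. Pdgfra and Fbn1 were at 0 in member-rich wells, with 8 and 5 counts in wells with no member, Dpt was at 0 in both, and Dcn, Lum and Mfap5 had no count in any well of this depth. The part of fibroblast RNA in the members' levels was not tested.

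On the plate sorted for Sca-1-negative cells the members were denser than on the ungated plates. Postn had 56 of 17377 counts, 3223 CPM (exact 95% interval 2435 to 4183). Hmcn1 was at 806 CPM, Il31ra at 403, Ltbp2 at 345, Ccn2 and Tgm5 at 288 each and Cd34 at 173. Myoc and Fbln1 were at 57.5 CPM from 1 count each, and Sema3e had no count. Of its 52 wells with at least 100 counts, 6 had 3 or more members (11.5%, 4.35 to 23.4), against 4.56% of the ungated wells, although its median well held 201 counts. The plate is a single sort of both ages, so the values describe 1 plate and no test was run. On the nuclease plate 3 of 230 wells (1.30%) had 3 or more, at a median of 396 counts per well.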

How the data were processed

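The authors deposited whole-number footprint counts per gene and well, 1 file per plate, and the values used here are those counts as deposited. Per the submitters' processing notes, fastp, Bowtie2, STAR, UMI-tools and featureCounts were used with build GRCm38.p6. Their versions and settings were not given in the labels, and how reads of paralogous copies were assigned is likewise unstated. Members, lists and tests were chosen with earlier results of these data known.

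Counts were summed per animal over wells with at least 100 counts and tested with edgeR 4.0.16 in R 4.3.3 (TMM, filterByExpr, robust quasi-likelihood fit, Benjamini-Hochberg adjustment at 0.05). Alternatives were limma-voom (limma 3.58.1) over plates with a random block per animal, DESeq2 1.42.0, other filters and well minimums, and leaving out each animal. The test was tried on simulated data. The replicate is the animal. That plates sharing an age and a postnatal day come from 1 animal is an assumption. Wells and pairs were described in wells of at least 500 counts, thinned to 500 without replacement. Clopper-Pearson intervals at 95% and floors of 3 counts cover counting error only. Doublets were not called. The nuclease plate and the Sca-1-negative plate entered no test, and the latter's wells were not split by age here. All 10 members were named, with the 15 genes and each member's 3 genes of highest correlation and up to 6 genes per list by level in member-rich wells. Some named list genes, such as Krt17, Lrig1, Ly6a and Tbx1, lie outside that rule and were chosen after their values were seen. Of the symbols 21754 matched the RefSeq table and 662 did not.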

Additional observations from a re-analysis of the deposited data

Results flagged for a closer look

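The plate of Sca-1-negative cells lies outside the comparisons above and carried a signal above the ungated plates. With each well thinned to 100 counts, a depth chosen after seeing the data, 15.4% of its 52 wells had at least 2 members (8 wells, exact 95% interval 6.88 to 28.1), against 2.15% of 1906 ungated wells (41 wells, 1.55 to 2.91). The members' summed level at that depth was 7308 CPM against 1228 CPM. P758, P662 and P60 were at 2.23%, 2.51% and 2.04%, P722 at 5.26% of 38 wells, and P57 and P59 at 0 of 13 and 0 of 48 wells. The cut of 2 members is lower than the 3 that define member-rich wells above. At 100 counts, 1 of the 52 wells had at least 3 members (1.92%, 0.0487 to 10.3). That compares with 13 of the 1906 ungated wells (0.682%, 0.364 to 1.16), and these intervals overlap. Thinned to 500 counts, 0 of 8 wells of the plate had at least 3 (up to 36.9%). The differences were not tested over animals, since the plate mixes both ages.

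Each member's level was also checked over the 5 plates of each age for a plate far from the rest. Of 20 such sets none had one. Plates of one animal are technical repeats, and chance gives about 1 in 20.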

How the results depend on the processing

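The 3 animals per age, of which only P60 and P758 are deep, limit every comparison of ages, and depth limits what a missing member in a shallow well can show. The count of genes called between ages was 0 in the main test, with DESeq2, without a minimum per well, with at least 500 counts per well and without each animal in turn (144 to 1976 genes tested). It was 111 with no filter on low counts, 45 with a mean of at least 20 CPM and 16 with limma-voom on plates. The cause was not tested. Under the 20 CPM filter Myoc was again the only member called (log2 difference -3.77, edgeR adjusted p = 3.63e-07). Postn kept its sign and stayed uncalled in all 8 alternatives that tested it, from 0.86 (limma-voom) to 1.56 (DESeq2), with adjusted p from 0.271 to 1.00. It was not tested with at least 500 counts per well or without P662, P758 or P60. The share of wells with at least 3 members was 4.14% in the main setting, 5.19% without thinning, 3.48% thinned to 1000 and 3.54% in another draw, and fell to 0.682% when thinned to 100, added after seeing the data, where most wells hold too few counts. Leaving out an animal moved the co-detection ratio between 9.03 and 17.4, the highest without P60, where the pairs with Myoc drop out. The concentration ratio moved between 0.427 and 0.543, again highest without P60. Of the 15 genes most like the members, 15 were shared without centring, 12 in P60 alone, 10 by detection in thinned wells and 7 in P758 alone. No paired analysis was possible because the labels give the 2 ages no shared replicate numbers.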
